A study of Rattus norvegicus with 6 samples.

Results

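The ubiquitin-specific proteases (USPs) are the largest family of deubiquitinases, the enzymes that cut ubiquitin off proteins or out of ubiquitin chains. Their transcripts were followed here in primary mesenchymal stem cells of rat bone marrow, taken from the femur and exposed to cigarette smoke extract (CSE). The members are all rows of the count table whose symbol is Usp followed by a number, with or without a trailing letter or an l and a number. This rule took 49 of 37209 rows. Usp6nl and Uspl1, whose symbols only resemble the rule, were not taken. The cells were wild type, and all were grown to near confluence in serum-containing medium before treatment. The CSE group (3 libraries) received 3% CSE for 6 h, and the control group (3 libraries) received serum-free medium for 6 h. The labels do not state the serum content of the CSE medium, so an effect of the extract and one of serum cannot be told apart. The sources used here do not give the strain, sex or age of the animals, nor whether each library had its own culture or animal. The p-values therefore reflect only how far these 6 libraries spread, and that spread may be technical.

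Ubiquitin is joined to a protein as a single unit or as a chain, and the kind of chain decides whether the protein goes to the proteasome, changes place or changes partners. USPs share a papain-like catalytic fold and differ in the domains around it, which direct them to the proteasome, to endosomes, to chromatin or to signalling receptors. In mesenchymal cells they act on the stability of receptors, SMADs, p53 and other regulators that carry stress and lineage signals. Levels are given as counts per 1000000 counts (CPM) after scaling each library by TMM, a factor meant to remove differences in library size and composition. These factors ran from 0.93 to 0.94 in the CSE libraries and from 1.06 to 1.07 in the control libraries. A fold change compares CSE with control and is given on the log2 scale ± SE, means of a group are given ± SD over 3 libraries, and its adjusted p comes from the quasi-likelihood test of edgeR over all 13390 genes tested.

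Library totals ranged from 15958621 to 22589327 counts, higher in every CSE library than in every control library (exact permutation p = 0.1, the smallest that 3 libraries against 3 allow). A count of 0 allows up to 3 counts, which equals between 0.142 and 0.177 CPM, a limit that covers counting error only. The stromal markers Thy1 (1427 ± 52.2 CPM under CSE and 1192 ± 49.5 in the control) and Pdgfrb (207 ± 12.8 CPM under CSE and 378 ± 6.39 in the control) were present, and the 11 stromal markers (3 rose, 5 fell, 3 did not pass) summed to between 28469 and 29801 CPM under CSE and between 29762 and 33118 in the control. Col1a1 alone had 26095.8 ± 666 CPM under CSE and 28796.5 ± 1889 in the control, so the stromal sum mainly follows this 1 gene. Leukocyte and macrophage markers were present too, such as Ptprc at 49.3 ± 0.819 CPM under CSE and 61.9 ± 2.301 in the control. All 10 markers of that list summed to between 1722 and 1779 CPM under CSE and between 1548 and 1593 in the control. Lyz2 alone had 1414 ± 24.8 CPM under CSE and 1175 ± 19.3 in the control, and the markers without it summed to 335 ± 11.2 CPM under CSE and 397 ± 4.41 in the control. Of its 9 tested genes 2 rose, 3 fell and 4 did not pass, and Cd163 was at 0. The B and T cell markers Cd79a, Cd3e and Cd3g were at 0 in all libraries. Endothelial markers summed to at most 7.59 CPM, erythroid and megakaryocyte markers to at most 10.96 CPM, and osteoclast markers to between 161 and 172 CPM. Most of the osteoclast sum was Ctsk, which had 133 ± 4.27 CPM under CSE and 143 ± 3.94 in the control and did not pass. The other 2 tested osteoclast markers, Acp5 (0.45 ± 0.08) and Oscar (1.21 ± 0.27), rose. The part of these other cells in the USP values was not tested, and fewer cells of a type cannot be told apart from less RNA per cell in such bulk samples.

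Most USP transcripts were higher after 6 h of CSE. Of the 49 members 40 passed the filter on low counts, and of these 29 rose, 7 fell and 4 did not pass. Among all tested genes 36.3% rose and 37.5% fell (73.9% called in either direction), against 72.5% and 17.5% of the tested USP genes. The median log2 fold change of the tested USP genes was 0.48, and that of all tested genes was −0.02. Changes were moderate: they ran from −0.80 (Usp46) to 1.64 (Usp32), with the middle of the distribution between 0.13 and 0.96. At least 2-fold rises were seen in 8 tested members, and no tested member fell 2-fold, while 10.7% of all tested genes rose and 14.4% fell by that much. Every CSE library lay above every control library in 30 members and below in 8, and the groups overlapped in Usp5 and Usp30. Over all tested genes the groups lay apart in 75.8%, with CSE above in 37.2% and below in 38.6%.

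Summed over all members, USP transcripts made up 2812, 2961 and 2959.7 CPM in the CSE libraries and 1990.3, 1998 and 1936 CPM in the control libraries. All CSE sums lay above all control sums, and the mean was 1.47 times as high (2911 ± 85.4 against 1975 ± 33.9 CPM, SD, n = 3, exact permutation p = 0.1). The sum without Usp14, which added the most counts to the CSE sums, was 1.42 times as high. Without any scaling factor the members took up 2624, 2794 and 2758 of every 1000000 counts with CSE and 2118, 2143 and 2057 in the control, a ratio of 1.29. Scaling by total counts alone moves the median log2 fold change of all genes by −0.19, and upper-quartile scaling moves it by −0.14. Under total counts alone 26 USP genes rose and 8 fell, with a median of 0.29. Over all tested genes 3749 rose and 6319 fell, so that 37.2% of the called genes were higher instead of 49.2%. The number of 2-fold rises also depends on the scaling. With total counts alone Usp10 (0.90), Usp15 (0.81), Usp37 (0.88), Usp38 (0.82) and Usp45 (0.98) stayed below 2-fold on the log2 scale. With upper-quartile factors the same held for these genes except Usp45 (1.03). Usp14, Usp32 and Usp49 stayed above 2-fold under both.

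**Figure D1:**
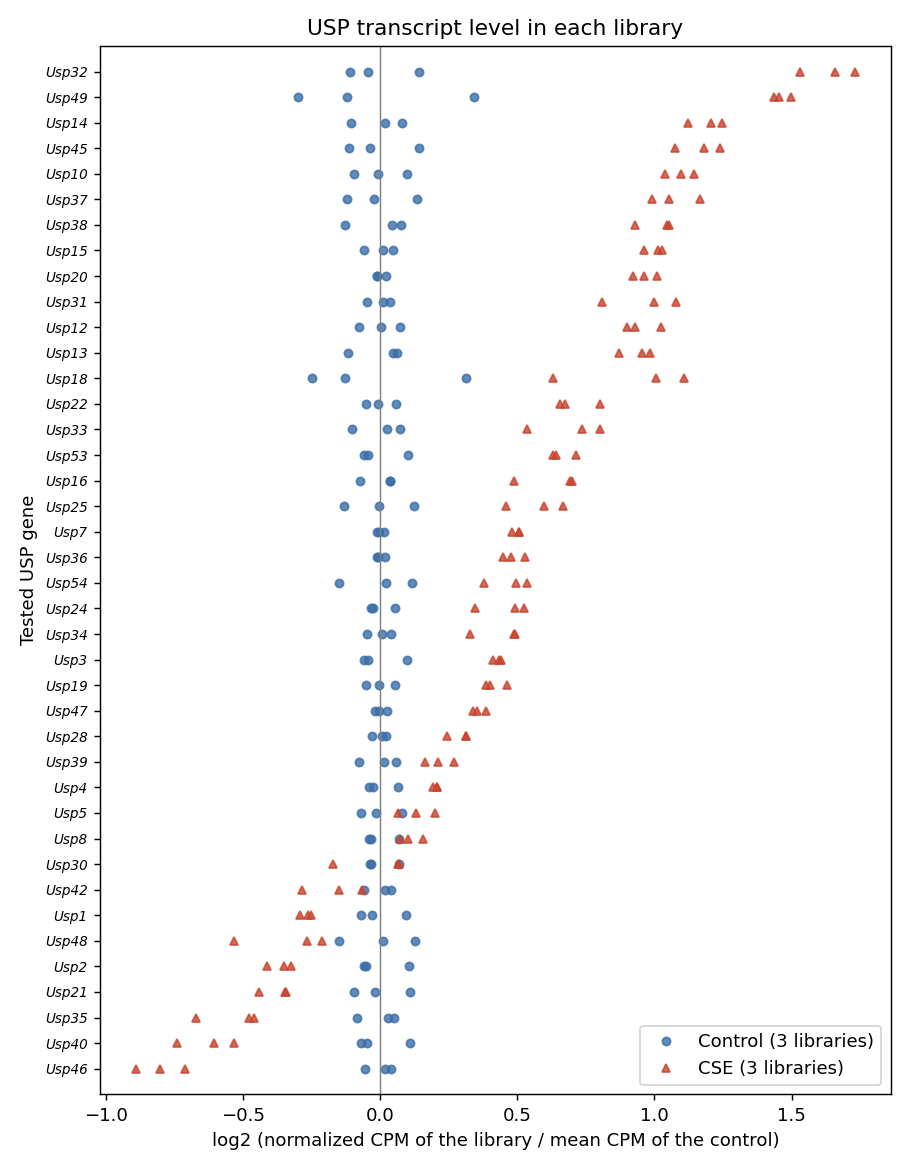
Level of each of the 40 tested USP genes in each library, as the log2 ratio of its normalized CPM to the control mean of the same gene (x axis), with genes ordered by log2 fold change (y axis). Triangles are the 3 CSE libraries and circles the 3 control libraries. The triangles lie right of all circles in 30 genes, all from Usp32 down to Usp8 except Usp5, and left of them in 8, from Usp42 down to Usp46.

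The largest rise among the tested members was that of Usp32, which encodes a Golgi and endosome enzyme that acts on the late endosomal GTPase RAB7. Usp32 stood at 109, 119 and 125 CPM in the CSE libraries and at 36.6, 41.7 and 35.1 CPM in the control libraries. The lowest CSE library held a higher level than the highest control library, and the 3.12-fold rise was 1.64 ± 0.07 on the log2 scale (edgeR adjusted p = 8.6e-13). Usp14, the deubiquitinase that binds the regulatory cap of the proteasome and trims chains of bound substrates, stood at 257, 273 and 280.1 CPM with CSE. Its control libraries stood at 119.7, 125 and 109.6 CPM, far below every CSE library, so that it rose 2.29-fold (1.19 ± 0.06, edgeR adjusted p = 2.6e-12). Usp20, whose product removes ubiquitin from receptors and trafficking proteins at the endoplasmic reticulum and endosomes, had 50.05, 47.1 and 48.4 CPM under CSE and 24.7, 24.7 and 25.2 in the control, with close replicates in both groups. The deepest fall among the tested members was that of Usp46, whose product works in a complex with the WD-repeat protein WDR48, at 23.4, 24.8 and 26.5 CPM under CSE and 43.8, 44.5 and 41.7 in the control. All Usp46 values with CSE lay below those of the control (−0.80 ± 0.07, edgeR adjusted p = 9.2e-09).

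The sequences before the annotated starts of these 4 genes are shown because they cover the largest rise and the deepest fall among tested members and a pair of rises whose promoters hold the antioxidant response element core. They are the 250 bases before the start in RefSeq's GRCr8 promoter table, 5′ to 3′ on the strand of the gene, at chr10:70502040-70502289 (minus strand) for Usp32, chr18:1330337-1330586 (minus strand) for Usp14, chr3:34670435-34670684 (plus strand) for Usp20 and chr14:34503900-34504149 (plus strand) for Usp46. Capitals mark matches to the 5 motifs described next.
Usp32: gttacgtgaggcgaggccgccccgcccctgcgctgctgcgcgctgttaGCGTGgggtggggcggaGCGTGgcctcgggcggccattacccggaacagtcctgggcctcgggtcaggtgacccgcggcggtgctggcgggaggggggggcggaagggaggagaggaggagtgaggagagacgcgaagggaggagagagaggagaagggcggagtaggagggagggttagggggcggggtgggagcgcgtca
Usp14: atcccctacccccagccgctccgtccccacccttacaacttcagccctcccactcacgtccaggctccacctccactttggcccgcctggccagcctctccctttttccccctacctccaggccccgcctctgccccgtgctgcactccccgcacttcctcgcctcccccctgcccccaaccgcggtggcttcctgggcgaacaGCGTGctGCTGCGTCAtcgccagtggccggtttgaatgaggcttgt
Usp20: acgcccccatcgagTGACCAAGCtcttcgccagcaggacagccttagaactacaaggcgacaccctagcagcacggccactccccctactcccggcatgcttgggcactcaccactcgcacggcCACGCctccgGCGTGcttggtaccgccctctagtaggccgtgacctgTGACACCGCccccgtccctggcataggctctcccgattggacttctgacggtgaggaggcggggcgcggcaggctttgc
Usp46: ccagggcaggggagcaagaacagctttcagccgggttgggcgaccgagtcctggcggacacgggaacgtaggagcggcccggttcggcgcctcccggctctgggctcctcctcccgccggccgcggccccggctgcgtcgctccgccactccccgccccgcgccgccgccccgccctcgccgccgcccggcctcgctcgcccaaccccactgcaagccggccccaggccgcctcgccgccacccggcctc

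Motifs of stress-responsive factors were searched on both strands in the 250 bases before each start, for the 34 tested members with an entry in that table. The antioxidant response element core TGACNNNGC, the letters bound by NRF2 with a small MAF partner, was found in 6 of 34 USP promoters (17.6%), in 12.4% of the promoters of all tested genes and in 10.1% of all promoters. The members with it were Usp14, Usp13, Usp34 and Usp36 with 1 match each, Usp20 with 2, all of which rose, and Usp2 with 1, which fell. Thus 5 of 24 members that rose and 1 of 7 that fell held this core. The xenobiotic response element core GCGTG, bound by the aryl hydrocarbon receptor, was in 19 of 34 (55.9%), against 44.1% for all tested genes and 25.9% for all promoters. It stood before 15 of 24 members that rose and 4 of 7 that fell. These promoters had a median GC content of 65%, against 60% for all tested genes and 51.2% for all promoters, and short GC-rich letters are met more often at a higher GC content. The AP-1 letters TGANTCA, which can share bases with TGACNNNGC, were found before Usp38 and Usp5 (5.88%, against 4.498% for all tested genes and 6.34% for all promoters). Neither the heat shock element, searched as GAA, TTC and GAA units spaced by 2 bases or the reverse order, nor the ATF4 letters TGATGNAA was found in the 34 windows. These occur in 0.420% and 1.70% of the promoters of all tested genes and in 0.663% and 3.40% of all promoters. In the sequences above, Usp32 holds GCGTG only, in 2 places, and Usp46 holds none of the 5 motifs. A match is a run of letters, not a bound site.

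The role groups that follow are small. Their counts stand beside 72.5% of all tested USP genes that rose and 17.5% that fell, and differences between role groups were not tested. Of the 3 members that recycle ubiquitin or act at the proteasome, 2 rose and 1 did not pass. Beside Usp14, Usp13 stood at 69.8, 71.1 and 65.8 CPM under CSE and at 37.6, 37.2 and 33.1 in the control, with the groups well apart (0.94 ± 0.06, edgeR adjusted p = 4.5e-10). Usp5, the paralog of Usp13 that takes apart free ubiquitin chains, stood at 47.1, 44.9 and 42.9 CPM under CSE and at 39.1, 40.6 and 43.3 in the control. The Usp5 groups overlapped, and at 0.13 ± 0.06 it was not called (edgeR adjusted p = 0.071). The value was below 0 with upper-quartile factors (−0.0049) and with total counts alone (−0.056). In RefSeq Usp5 overlaps Cdca3, which had 17.9 CPM under CSE and 39.2 in the control, and since no strand setting is known, reads from overlapping genes cannot be told apart. Without CSE replicate 3 (0.17) or Control replicate 3 (0.16), and under RLE scaling (0.15), Usp5 was called higher. In RefSeq 11 members overlap another protein-coding gene, and the part of such reads in their values was not tested.

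Among the genes of endosome and membrane traffic, Usp8, the ESCRT-linked enzyme that controls sorting of growth factor receptors, moved little. It had 75.4, 79.9 and 77 CPM under CSE and 75.3, 69.8 and 70.2 in the control, and at 0.11 ± 0.05 it was not called (edgeR adjusted p = 0.077). With upper-quartile factors (−0.027) and with total counts alone (−0.078) the value was below 0, and it was called higher under RLE scaling (0.13) and without Control replicate 1 (0.14). Usp9x, a further member of this group on chromosome X, was listed at 0. Usp32 overlaps another protein-coding gene of RefSeq, Chct1, for which no count was analysed here.

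Of the members that act on histones or chromatin 5 were tested, and 4 rose while Usp21 fell. Usp49, which encodes a histone H2B deubiquitinase, was low and rose 2.77-fold (1.47 ± 0.15, edgeR adjusted p = 1.1e-07). Its CSE libraries stood at 10.7, 11.02 and 10.5 CPM and its control libraries at 4.95, 3.16 and 3.58, with more spread in the control. Usp49 overlaps Med20, a Mediator subunit gene at 30.2 CPM under CSE and 26.5 in the control. Usp22, the catalytic subunit gene of the SAGA deubiquitinating module, had 90.9, 89.7 and 99.3 CPM under CSE and 56.6, 54.98 and 59.4 in the control (0.71 ± 0.06, edgeR adjusted p = 5.1e-09). Every CSE library was above every control library for Usp22, Usp16 and Usp3. Usp16 encodes a histone H2A deubiquitinase and rose from 72.99 ± 3.08 to 113 ± 9.17 CPM (0.63 ± 0.06), with the overlapping chaperonin gene Cct8 higher as well (398 against 240.3 CPM). Usp3, another H2A deubiquitinase gene, rose from 17.7 ± 1.09 to 23.8 ± 0.260 CPM (0.43 ± 0.08). Usp21, whose product also acts on H2A, stood at 13.2, 14.1 and 14.1 CPM under CSE and at 17.7, 19.3 and 16.8 in the control, below it in every library (−0.38 ± 0.09, edgeR adjusted p = 0.0012).

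The 6 members known for acting on p53, its ligase MDM2 or MYC split into 4 that rose, 1 that fell and 1 that did not pass. Usp10, which stabilises p53 in the cytoplasm and binds the stress granule protein G3BP1, stood at 93.1, 96.3 and 89.3 CPM with CSE. Its control libraries stood at 40.7, 43.3 and 46.6 CPM, each below every CSE library, and it rose by 1.09 ± 0.06 (edgeR adjusted p = 3.0e-11). Usp7, which keeps both MDM2 and p53 from degradation, had some of the closest replicates, at 172, 169 and 172 CPM under CSE and 121, 119.9 and 122 in the control (0.50 ± 0.05). Both groups of Usp7 span only a few CPM. Usp24, a large enzyme known for acting on p53, rose from 116 ± 3.93 to 159 ± 10.3 CPM (0.46 ± 0.05). Usp28, which binds the checkpoint protein 53BP1 and stabilises MYC, rose from 29.5 ± 0.539 to 36.1 ± 0.980 CPM (0.29 ± 0.06). The Usp28 call ended under total counts alone (0.10, edgeR adjusted p = 0.15). Usp2, which acts on MDM2, cyclin D1 and the circadian clock, fell from 11.7, 13.02 and 11.6 CPM in the control libraries to 9.49, 9.65 and 9.096 with CSE (−0.36 ± 0.11, edgeR adjusted p = 0.0051). Usp42, another enzyme that acts on p53, had 24.8, 23.4 and 21.3 CPM under CSE and 26.7, 24.9 and 26.3 in the control. At −0.16 ± 0.08 it was not called (edgeR adjusted p = 0.064), but was called lower under upper-quartile scaling (−0.30), under total counts alone (−0.35) and without CSE replicate 1 (−0.21, edgeR adjusted p = 0.035). It was nearest to 0 without CSE replicate 3 (−0.10, edgeR adjusted p = 0.28), and DESeq2 gave −0.14 (adjusted p = 0.19). In RefSeq Usp42 overlaps Cyth3, which had 128 CPM under CSE and 110 in the control.

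The 3 members that need WDR48 for full activity moved apart. Usp12 rose, with 43.03, 43.8 and 46.9 CPM in the CSE libraries and 24.2, 21.8 and 23.1 in the control (0.95 ± 0.07, edgeR adjusted p = 9.7e-10). Its close relative Usp46 fell, as given above. Usp1, which removes ubiquitin from the repair proteins FANCD2 and PCNA, fell from 91.9, 84.5 and 82.1 CPM in the control to 70.4, 72.4 and 71.8 with CSE (−0.27 ± 0.06, edgeR adjusted p = 3.2e-04). All CSE libraries were below all control libraries for Usp1, and the difference was small. Their shared cofactor Wdr48 was at 0.18 ± 0.06 (edgeR adjusted p = 0.012). The related cofactor Wdr20, which serves the USP12 and USP46 complexes, rose from 15.03 ± 0.535 to 29.4 ± 0.433 CPM, while the WDR20-related Dmwd fell from 28.7 ± 1.17 to 14.6 ± 0.572 CPM.

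Of 4 members tied to the cell cycle or DNA damage 3 rose and 1 fell. Usp45, known for acting on the repair nuclease subunit ERCC1, stood at 59.3, 63.9 and 66.6 CPM under CSE and at 26.03, 31.1 and 27.4 in the control (1.16 ± 0.07, edgeR adjusted p = 1.4e-10). Usp37, which stabilises cyclin A at entry into S phase, stood at 49.8, 51.9 and 56.2 CPM under CSE and 24.6, 27.5 and 23.01 in the control (1.07 ± 0.07, edgeR adjusted p = 6.6e-10). In both genes each CSE library held more than every control library by a wide gap. Usp37 overlaps Plcd4 in RefSeq, which had 1.28 CPM under CSE and 0.0344 in the control, and Cnot9, for which no count was analysed here. Usp47, which acts on the base excision repair polymerase beta, rose from 164 ± 2.498 to 211 ± 3.64 CPM (0.36 ± 0.04). Usp48, which trims ubiquitin on histone H2A, had 18.6, 22.4 and 23.3 CPM under CSE and 29.4, 24.3 and 27.1 in the control, close to each other at the edges of the groups (−0.33 ± 0.09, edgeR adjusted p = 0.0038).

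Both members of the nucleolus and the splicing machinery rose slightly. Usp36, the nucleolar enzyme gene, had 56.4, 59.6 and 57.6 CPM under CSE and 41.1, 41.2 and 41.9 in the control, with little spread (0.48 ± 0.06, edgeR adjusted p = 5.5e-07). Usp39, a spliceosome component that lacks catalytic activity, was at 0.22 ± 0.06 (edgeR adjusted p = 0.0062), and its call ended under upper-quartile scaling (0.08, edgeR adjusted p = 0.29) and total counts alone (0.03, edgeR adjusted p = 0.72).

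Among members placed at organelle membranes or in traffic from the endoplasmic reticulum, 3 rose, 1 fell and 1 did not pass. Usp20 rose as given above (0.96 ± 0.06, edgeR adjusted p = 2.6e-10), and its paralog Usp33 rose from 75.3 ± 4.597 to 122 ± 11.5 CPM (0.70 ± 0.07). Usp19, whose product is anchored in the membrane of the endoplasmic reticulum, rose from 98.2 ± 3.55 to 131 ± 3.66 CPM (0.42 ± 0.05). Usp30, the mitochondrial outer membrane enzyme that opposes mitophagy, had 18.8, 18.9 and 15.97 CPM under CSE and 17.5, 18.9 and 17.5 in the control, so that the groups overlapped (−0.01 ± 0.09, edgeR adjusted p = 0.94). Its sign was positive under RLE scaling and with DESeq2 (0.012 each), and without CSE replicate 3 (0.073). Usp35, also placed at mitochondria, was low and fell, with 5.17, 4.47 and 5.12 CPM with CSE against 6.71, 7.38 and 7.27 (−0.53 ± 0.14, edgeR adjusted p = 0.0022).

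Of the paralogs that act on TGF-beta receptors and SMADs, Usp15 doubled. It stood at 126, 132 and 130.3 CPM under CSE and at 66.7, 65.05 and 62.01 in the control, with narrow groups far apart (1.00 ± 0.05, edgeR adjusted p = 1.1e-11). Usp4 was at 80.9, 80.2 and 80.9 CPM under CSE and 68.8, 68.2 and 73.4 in the control (0.20 ± 0.05, edgeR adjusted p = 0.0024). Its call ended under upper-quartile scaling (0.06, edgeR adjusted p = 0.29) and total counts alone (0.01, edgeR adjusted p = 0.83). The third paralog, Usp11, was listed at 0. RefSeq lists pseudogenes of Usp15 and of Usp12, so reads of those 2 genes may have been split or dropped and their levels are uncertain.

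All 4 tested members of the innate immune group rose, as did 72.5% of all tested USP genes and 36.3% of all tested genes. Usp38, which acts on the antiviral kinase TBK1, had 55.4, 60.4 and 60.1 CPM under CSE and 29.97, 30.6 and 26.6 in the control (1.01 ± 0.07, edgeR adjusted p = 4.2e-10). Usp31, linked to NF-kB signalling, had 44.7, 53.9 and 51.01 CPM under CSE and 26.2, 24.7 and 25.7 in the control (0.96 ± 0.07, edgeR adjusted p = 2.6e-09). In both genes the CSE libraries lay well above the control. RefSeq also lists Usp31 as a synonym of Usp48, so the identity of the Usp31 row rests on the symbol in the table. Usp25, which acts on TRAF adaptor proteins, rose from 50.5 ± 4.45 to 75.4 ± 5.47 CPM (0.58 ± 0.07). Usp18, the interferon-inducible enzyme that removes the ubiquitin-like modifier ISG15, was low, with 3.75, 3.49 and 2.69 CPM under CSE and 1.59, 2.16 and 1.46 in the control (0.93 ± 0.23, edgeR adjusted p = 0.0018). Isg15 itself had 0.298 ± 0.260 CPM under CSE and 0.691 ± 0.189 in the control and did not pass (edgeR adjusted p = 0.067).

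The remaining tested members were Usp53 and Usp54, long regarded as catalytically inactive, and Usp34 and Usp40. Usp53, a tight junction protein gene, rose from 11.9, 13.3 and 12.01 CPM to 19.4, 19.2 and 20.3 (0.66 ± 0.09, edgeR adjusted p = 3.0e-06), and Usp54 rose from 18.02 ± 1.66 to 25 ± 1.38 CPM (0.47 ± 0.09). Neither gene had a CSE library below a control library. Usp34, which stabilises the WNT regulator axin, had 201, 225 and 224 CPM under CSE and 161, 164 and 155 in the control (0.44 ± 0.05, edgeR adjusted p = 8.5e-07). It overlaps the HSP90 activator homolog Ahsa2, at 44.3 CPM under CSE and 16.8 in the control. Usp40, a less studied member, was among the deepest falls, with 15.6, 16.4 and 14.2 CPM under CSE and 25.6, 22.6 and 22.96 in the control and no overlap (−0.62 ± 0.09, edgeR adjusted p = 5.0e-06).

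**Figure D2:**
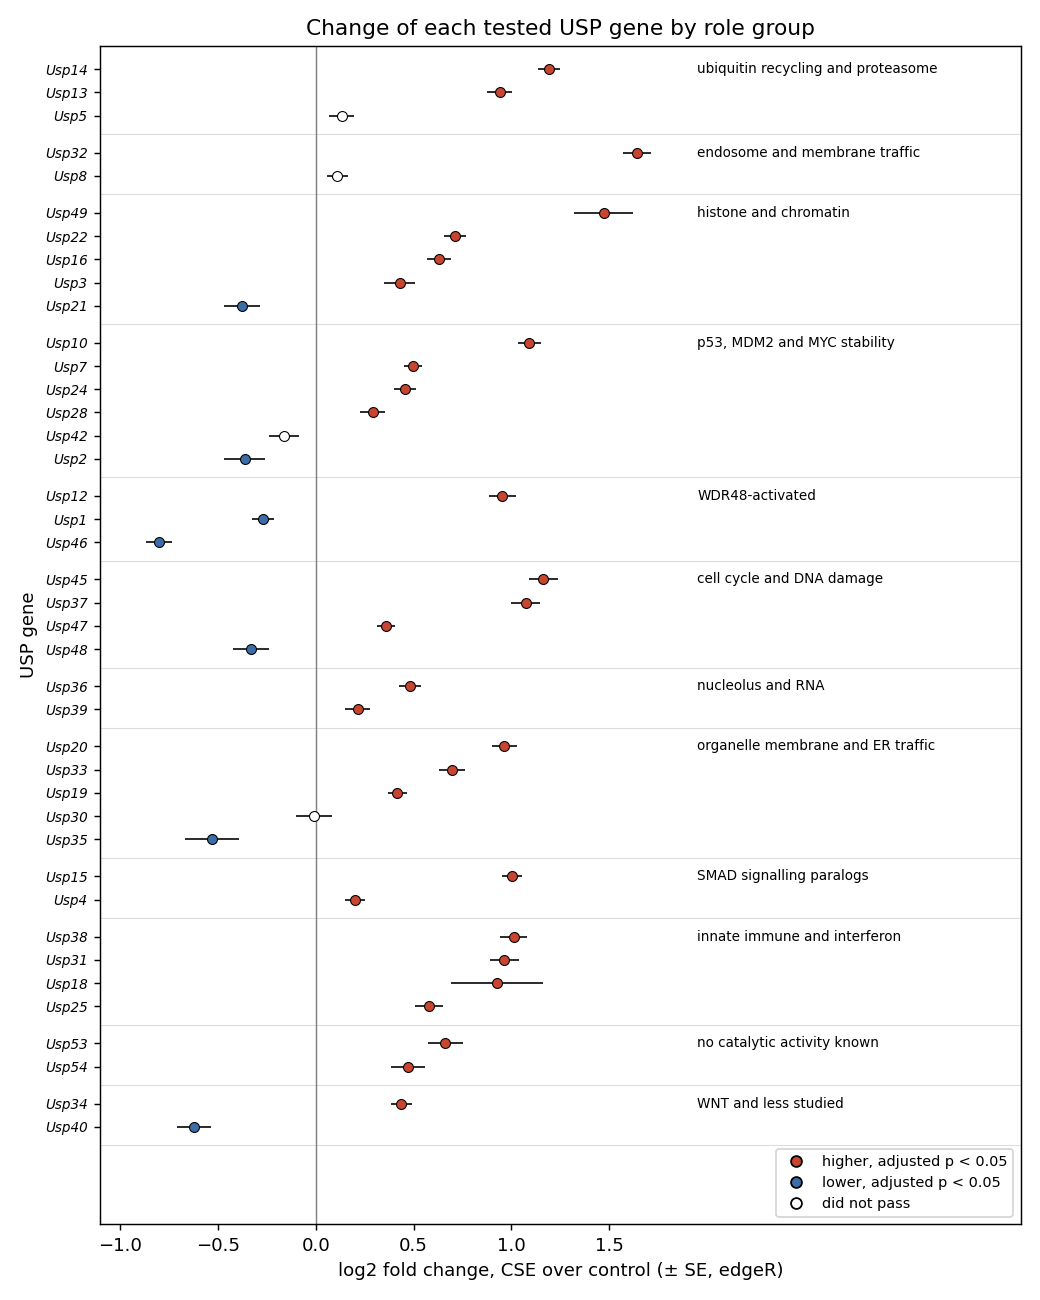
Log2 fold change of CSE over control ± SE from edgeR (x axis) for each of the 40 tested USP genes (y axis), arranged in 12 role groups. Red points were higher and blue points lower at an adjusted p under 0.05, and white points did not pass. The 7 falls are spread over 6 groups, and the WDR48-dependent genes run from −0.80 (Usp46) to 0.95 (Usp12).

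The other 9 members did not pass the filter on low counts. Usp9x, Usp11, Usp26, Usp27x and Usp51, which RefSeq assigns to chromosome X, and Usp50 were listed at 0 in all 6 libraries. The same held for 563 of 574 named protein-coding genes that RefSeq places on chromosome X and the table lists, so these members are reported only as listed at 0. Usp29, an imprinted gene, had 2 counts in 1 CSE library. Usp44, known from the mitotic checkpoint, had 4 counts with CSE and 5 in the control. Usp43 had 1, 1 and 0 counts in the CSE libraries and 7, 5 and 5 in the control libraries, a control level 8.96 times that with CSE with a 95% exact interval of 2.13 to 79.9 that covers counting error only. It was called lower when the filter on low counts was lifted.

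Ratios between related members inside a library do not depend on how libraries are scaled, and 9 pairs of related genes were compared in this way. In each pair the member with the larger log2 fold change stands first, so every difference lies above 0 by this order. The ratios restate the fold changes given above, and their p-values are not separate evidence. Usp12 over Usp46 had log2 count ratios of 0.88, 0.82 and 0.82 in the CSE libraries and −0.86, −1.03 and −0.85 in the control libraries. All CSE ratios lay above 0 and all control ratios below, and the ratio was 3.37 times as high with CSE (log2 difference 1.75). For Usp38 over Usp35 the ratio was 2.92 times as high, with 3.42, 3.75 and 3.55 with CSE and 2.16, 2.05 and 1.87 in the control on the log2 scale. Usp13 over Usp5 moved from −0.19 ± 0.17 to 0.62 ± 0.05, and Usp15 over Usp4 from −0.12 ± 0.11 to 0.68 ± 0.04 (log2, SD, n = 3). A ratio within a library also depends on the lengths of both genes, so that only its difference between the groups is read. Usp36 over Usp42, Usp45 over Usp16 and Usp25 over Usp28 were also higher in every CSE library, with log2 differences of 0.65, 0.54 and 0.29. These 7 pairs each had an exact permutation p = 0.1, the smallest possible, or 0.129 adjusted over the 9 pairs. As single genes, 75.8% of all tested genes had groups that lay apart, and pairs of other genes were not compared. Groups overlapped for Usp20 over Usp33 (log2 difference 0.27, exact permutation p = 0.2, adjusted 0.225) and Usp53 over Usp54 (0.19, exact permutation p = 0.3, adjusted 0.3).

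**Figure D3:**
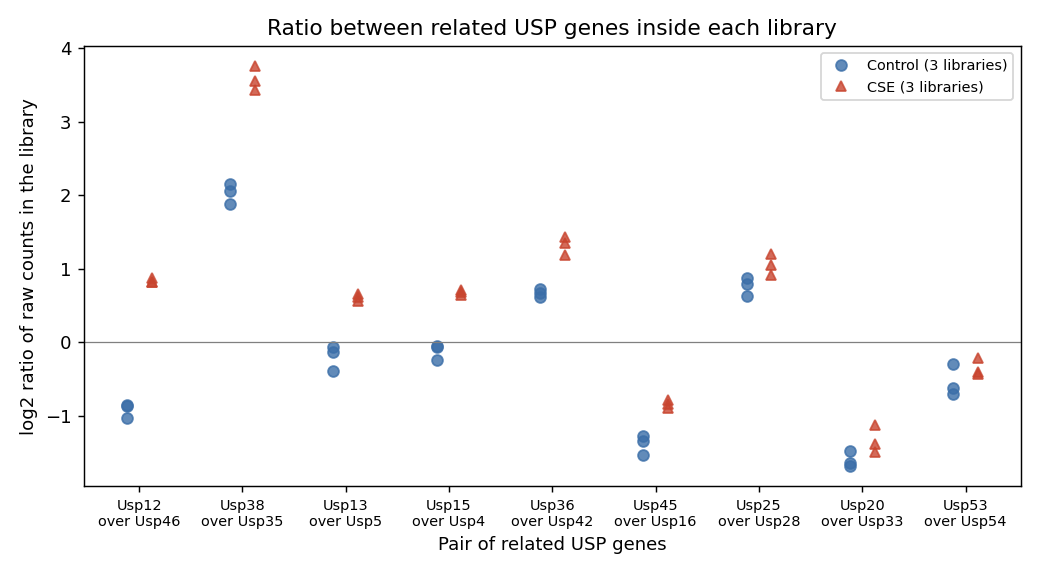
Log2 ratio of raw counts between 2 related USP genes inside each library (y axis) for 9 pairs (x axis). Triangles are the 3 CSE libraries and circles the 3 control libraries. The member with the larger log2 fold change is written first in each pair. Triangles lie above all circles in 7 pairs, with the widest gap for Usp12 over Usp46 (log2 difference 1.75), and overlap them for Usp20 over Usp33 and Usp53 over Usp54. As single genes, 75.8% of all tested genes had groups that lay apart.

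Of 33 tested genes of the UCH, OTU, Josephin, JAMM, MINDY and ZUP1 families 16 rose and 8 fell, 9 did not pass, and the median log2 fold change was 0.15. Among all tested genes 36.3% rose and 37.5% fell, against 48.5% and 24.2% of these 33. Under total counts alone 14 rose and 14 fell, and under upper-quartile scaling 14 rose and 13 fell, while over all tested genes 4045 rose and 5990 fell under the latter. The difference between these families and the USP genes was not tested. In the UCH family 3 of 4 rose, led by Uchl1 (1.37 ± 0.07) and the tumour suppressor gene Bap1 (0.67 ± 0.06). In the OTU family 4 of 12 rose and 5 fell, and Otud6b (1.5 ± 0.06), Otud4 (1.30 ± 0.05) and the VCP-associated Vcpip1 (0.87 ± 0.06) had the smallest adjusted p. Of 11 genes of the JAMM (MPN domain) family 6 rose and 2 fell. This list also holds subunits that lack the metal-binding motif, Psmd7, Cops6, Eif3f and Eif3h. The proteasome lid deubiquitinase gene Psmd14 rose by 0.85 ± 0.06. Among 3 Josephin genes Atxn3 (0.76 ± 0.08) and Josd1 (0.21 ± 0.07) rose. Of 3 tested MINDY and ZUP1 genes Zup1 rose (0.84 ± 0.09) and Mindy1 fell (−0.36 ± 0.07). Genes with a USP fold but another name also moved both ways: the SUMO protease gene Uspl1 rose (1.85 ± 0.07), and Pan2 (−0.61 ± 0.08) and Cyld (−0.30 ± 0.08), the latter a brake on NF-kB, fell.

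**Figure D4:**
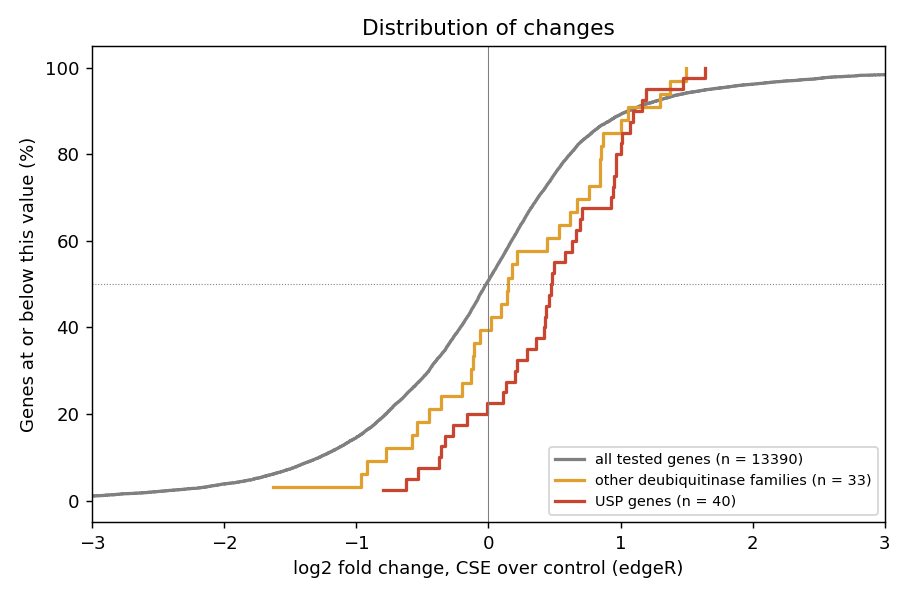
Cumulative share of genes (y axis, percent) at or below each log2 fold change of CSE over control (x axis, shown from −3 to 3) for 40 USP genes, 33 genes of other deubiquitinase families and all 13390 tested genes. The curves cross the 50% line near 0.48, 0.15 and −0.02.

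Of 20 cofactors and partners of USP enzymes 13 rose and 4 fell, 3 did not pass, and the median was 0.39. These rises and falls are 65% and 20% of the list, against 36.3% and 37.5% of all tested genes. Mdm2 (1.69 ± 0.05), Atxn7 (2.26 ± 0.07) and Hgs (1.17 ± 0.05) had the smallest adjusted p. Atxn7 encodes the subunit that anchors the USP22 module in SAGA, and it rose from 22.6 ± 1.88 to 108.7 ± 7.13 CPM. Other module subunits in the list were Atxn7l3 at 0.46 ± 0.05 and Eny2 at 0.06 ± 0.06, which did not pass (edgeR adjusted p = 0.4). Of the paralogs of Atxn7 in the list, Atxn7l1 (listed as Atxn7l4) fell (−1.20 ± 0.10) and Atxn7l2 rose (0.45 ± 0.15). Hgs encodes the ESCRT-0 subunit at which USP8 works, and it rose together with its partner Stam (0.89 ± 0.05), whereas Stam2 fell (−0.42 ± 0.07). The USP10 partner G3bp1 rose (0.60 ± 0.04), and its paralog G3bp2 did not pass (−0.01 ± 0.05, edgeR adjusted p = 0.86). The proteasome subunit gene Psmd2, whose product binds USP14, rose by 0.81 ± 0.05. Partner genes other than the first 3 were picked out after their values were seen.

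Across the 40 tested USP genes the log2 fold change had a Spearman rho of 0.26 with the genomic span of the gene in RefSeq and of 0.28 with its mean CPM. Over all tested genes these were 0.00409 (11117 genes with a span) and 0.20. The values are across genes of the same libraries, which are not independent replicates, and serve as a description.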

How the data were processed

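The authors deposited raw read counts per gene symbol for 6 libraries, as whole numbers with no normalization. HISAT2 2.0.4 and the rat build Rnor_6.0 are named without a role, per the submitters' processing notes, and the sources used here do not give the counting tool, the strand setting or the annotation. Columns were matched to samples by title. Counts were filtered with filterByExpr of edgeR 4.0.16 (R 4.3.3), scaled by TMM and tested with its quasi-likelihood F test (2-sided). Benjamini-Hochberg adjustment covered 13390 genes, with a threshold of 0.05. The SE is the log2 fold change divided by the square root of F. The fits per gene were tried on simulated counts in which far fewer genes were changed than were called here. That trial cannot check how the scaling acts when most genes are called. It did not cover the permutation, ratio or motif steps. Replicates were compared by chi-square over genes (3.35 to 6.00 per degree of freedom within groups, 191 to 234 across), so no 2 libraries were merged, which does not show that they are separate cultures.

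The members, lists, related pairs and motifs were chosen with earlier results of these data known, and other letter patterns were looked at before the 5 motifs were kept. Values in every library are given for the 10 largest called rises and falls with a mean of at least 1 CPM, for the member of smallest adjusted p in each role group, and for further members named to account for all. Up to 3 genes per other list were taken by smallest adjusted p. Of 104 symbols in the other lists 101 had a row, 6 of them under an older symbol of the RefSeq table. That table and its promoter sequences are of the assembly GRCr8, not the build of the counts, and served for names, chromosomes, overlaps and sequences.

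Alternatives were RLE, upper-quartile and no scaling, no filter, a stricter filter (1 CPM in 3 libraries), DESeq2 1.42.0, limma-voom (limma 3.58.1), a replicate block and leaving out each library. One result of the other lists is not reported here.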

Additional observations from a re-analysis of the deposited data

How the results depend on the processing

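The number of USP genes called higher ran from 26 to 31 and the number called lower from 7 to 8 over all alternatives. Leaving out 1 library at a time gave 29 to 30 higher, 7 to 8 lower and a median log2 fold change of 0.47 to 0.50. That median was 0.34 under upper-quartile scaling and 0.29 under total counts alone, where the median of all genes also moved down. Genes of the other deubiquitinase families called lower numbered 13 and 14 under these settings, against 8. Signs turned in 3 genes that had not passed: Usp5 (−0.0049 with upper-quartile factors, −0.056 with total counts), Usp8 (−0.027 and −0.078), and Usp30 under RLE scaling (0.012) and with DESeq2 (0.012). Leaving out 1 library moved Usp30 between −0.042 and 0.073, above 0 without CSE replicate 3 or Control replicate 2. Without CSE replicate 3 or Control replicate 3 Usp5 was called higher (0.17 and 0.16), and without Control replicate 1 Usp8 was (0.14). The cause was not tested.

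Replicate numbers are shared by the groups, and whether they pair the libraries is not known. Same-numbered libraries had deviations correlated between −0.03 and 0.02, and libraries of different numbers between −0.08 and 0.09. With 3 libraries per group these values cannot show whether a culture or batch was shared. With the replicate block 29 USP genes were higher and 7 lower, and 9756 genes in all were called, against 9894. Depth limits Usp29, Usp43 and Usp44, which had too few counts to test. The calls of Usp4, Usp28 and Usp39 ended under total counts alone.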
